A study of Oryza sativa with 6 samples.

Results

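Cell-wall invertases are enzymes of the apoplast, the space outside the plasma membrane, where they split sucrose into glucose and fructose. In a filling cereal grain sucrose arrives through the phloem of the maternal vascular bundle and is released into that space. There it is either cleaved by these invertases and taken up as hexoses, or carried into the endosperm whole and cleaved by sucrose synthase. GIF1, also named OsCIN2, is the rice cell-wall invertase whose loss gives incompletely filled grains, and CIN1 is a paralog first cloned from the developing caryopsis.

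The members were all genes of the RefSeq gene table for rice whose symbol or synonym is GIF1, OsCIN2 or CIN followed by a number, and every array probe set whose single annotated gene is among them. The rule matched 7 genes, CIN1 to CIN7 with GIF1 as CIN2, and 5 of them had a probe set. These 5 probe sets, 1 per gene, stood among 57194 on the array, of which 22436 are paired with a single gene, 17905 genes in all. CIN5 and CIN6 have none paired with them in the platform annotation and were not analysed here. In the gene order of assembly ASM3414082v1, CIN3 and GIF1 are neighbours on chromosome 4 with 0 genes between them, and so are CIN5 and CIN6 on the same chromosome. CIN4 is on chromosome 1, CIN1 on chromosome 2 and CIN7 on chromosome 9.

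RNA from whole caryopses taken 7 days after flowering was hybridized to 6 single-colour arrays, 3 of the mutant gif1 and 3 of its wild type, the japonica cultivar Zhonghua11. The labels call the 3 arrays of each genotype biological replicates and name no further treatment. They give neither the gif1 allele nor the number of plants behind an array, so p-values measure the spread between these samples. The question was how transcripts of the filling grain differ when GIF1 is defective. Values are linear signal intensities in arbitrary units, and each value below comes from n = 3 arrays per genotype. Log2 differences are gif1 minus wild type on a log2(signal + 17.7) scale, where the added constant understates the difference of dim probe sets. A probe set was called higher or lower where limma's p, adjusted by Benjamini and Hochberg's method over all 28597 probe sets tested, was under 0.05.

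The arrays differed between genotypes beyond single genes. Median signals were 67.5 to 72.6 on the gif1 arrays, against 83.7 to 103.6 on the wild-type arrays, while the trimmed mean was 500.1 on each. The poly-A control RNAs, added before labelling, differed by -2.24 on the log2 scale and the hybridization controls by -0.51 (exact permutation p = 0.1 for each, two-sided and the smallest that 3 against 3 arrays allow, and 0.175 after adjustment over 7 such measures). The ribosomal RNA probe sets differed by -1.06, also without overlap (exact permutation p = 0.1, adjusted 0.175), while the 3'-to-5' ratios of actin, GAPDH and cyclophilin overlapped between genotypes. Their part in the results below was not tested. Over all tested probe sets 1709 were called higher and 1716 lower, with a median log2 difference of -0.06. Median centring of the arrays gave 5817 higher (20.3%) and 613 lower (2.14%) around a median of 0.28. Scaling to the hybridization controls gave 9777 (34.2%) and 477 (1.67%) around 0.43. Single arrays also moved these counts. Without gif1 replicate 1, 2 or 3 they were 743, 866 and 727 higher and 839, 903 and 709 lower. Without wild-type replicate 1, 2 or 3 they were 2289, 1244 and 1256 higher and 2005, 1122 and 1042 lower. Starchy endosperm markers, mostly glutelins and other storage proteins, gave signal on every array, apart from the dim GluB-4. Over the 11 of 17 with a probe set, their summed signal was 445903 to 505695 on gif1 arrays and 614608 to 767388 on wild-type arrays, and 8 of 10 tested were called lower. Of all tested probe sets 6% were called lower and 5.98% higher. The dimmest of them, GluB-4, averaged 70.7 and was not tested. It read 17.3 on gif1 replicate 1 and 9.4 on wild-type replicate 2, both under the constant added before taking logs. Green pericarp markers such as Rubisco summed to 96268 to 117391 on gif1 arrays and 75292 to 80830 on wild-type arrays over 6 of 8, with 5 called higher. The brightest of them, CAB2R, went the other way, averaging 37366.5 in gif1 and 44440.4 in wild type. Its log2 difference of -0.25 was not called (limma adjusted p = 0.106). Aleurone and embryo markers summed to 35012 to 36266 on gif1 arrays and 62478 to 99539 on wild-type arrays over 9 of 12, with 4 called lower and 1 higher. None of 3 markers of vegetative meristem or root had a probe set (0). All marker sums and calls are for the arrays as deposited, and marker calls under other scalings were not counted. The endosperm marker SWEET11 differed by 0.03 as deposited, 0.25 with quantile normalization, 0.36 with median centring and 0.54 with control scaling. The highest signal of an array was 88003.7 to 97958.4 in gif1 and 112145.5 to 145724.3 in wild type. Its part in the marker values was not tested. In whole caryopses, fewer cells of a type and less RNA per cell cannot be told apart.

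GIF1, the mutated invertase, was lower in gif1 grains, and CIN1 was higher. Of the 4 cell-wall invertase probe sets that could be tested, 1 was called lower (GIF1), 1 higher (CIN1) and 2 were not called (CIN7 and CIN4). The fifth, that of CIN3, was too dim to be tested. Among all tested probe sets 12% were called, 5.98% higher and 6% lower. The genotypes did not overlap for 3 of the 4, against 33.4% of all tested probe sets.

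The GIF1 probe set read 173.3, 100.9 and 190.4 on the gif1 arrays, against 654.2, 428.6 and 607.7 on the wild-type arrays. Every gif1 array lay below every wild-type array, as it did for 18.3% of tested probe sets. The means were 154.9 ± 47.5 in gif1 and 563.5 ± 119.1 in wild type (SD, n = 3 each), so the gif1 mean was 27.5% of the wild-type mean. The log2 difference was -1.77 (SE 0.28, 95% interval -2.37 to -1.17, limma adjusted p = 0.00254). Only 0.713% of tested probe sets had a more negative difference. The probe set thus gave some signal on all mutant arrays, and the dimmest of them, replicate 2, read 100.9. How much of that signal is GIF1 transcript is not known here. The values used hold no detection calls, and binding of related transcripts was not tested. The fall tests the genotype labels only if the gif1 mutation reduces this transcript, since the site of the mutation within the gene and the stretch that the probes match are not known here. The 11 starchy endosperm markers with a probe set had a median log2 difference of -0.48 on the same arrays as deposited. The 8 called lower were Wx and storage proteins, whereas SWEET11 (0.03) and NF-YB1 (0.08) were not called. The part of these markers in the GIF1 result was not tested.

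CIN1, the paralog known from the developing caryopsis, read 1092.4, 781.1 and 872.0 on the gif1 arrays, against 474.7, 256.5 and 398.5 on the wild-type arrays. The lowest gif1 array stood above the highest wild-type array, a separation in this direction that 15.1% of tested probe sets shared. CIN1 averaged 915.2 ± 160.1 in gif1 and 376.6 ± 110.7 in wild type (SD, n = 3 each), a signal ratio of 2.43. Its log2 difference was 1.27 (SE 0.23, 95% interval 0.76 to 1.78, limma adjusted p = 0.00596), larger than that of 98.3% of tested probe sets. With limma's prior variance not allowed to follow intensity, the difference of 1.27 no longer passed (adjusted p = 0.0590), whereas GIF1 did (adjusted p = 0.0401). Fewer probe sets passed in that fit as a whole, 1.29% higher and 1.45% lower. Green pericarp markers other than CAB2R were higher on the same arrays. The median log2 difference of all 6, with CAB2R at -0.25, was 1.17, and their part in the CIN1 result was not tested.

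CIN7, a further cell-wall invertase gene, did not pass as the arrays were deposited. It read 706.4, 572.0 and 662.7 in gif1, against 510.9, 465.4 and 558.5 in wild type. The lowest gif1 array exceeded the highest wild-type array by a small margin. The means were 647.0 ± 68.6 and 511.6 ± 46.6 in gif1 and wild type (SD, n = 3 each), and the log2 difference was 0.33 (SE 0.17, 95% interval -0.05 to 0.71, limma adjusted p = 0.242). This gene's call rested on array scaling. It passed as higher with median centring (0.66, adjusted p = 0.0286) and with scaling to the hybridization controls (0.82, adjusted p = 0.00765), the settings in which 20.3% and 34.2% of all tested probe sets were called higher. Relative to the median of all tested probe sets, CIN7 lay at 0.38 in the deposited values, 0.38 once centred and 0.39 with control scaling. These distances could not differ much, since both settings move a whole array by 1 value.

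CIN4 was dim and did not pass. It read 83.2, 121.6 and 111.9 on the gif1 arrays, against 107.3, 92.7 and 94.0 on the wild-type arrays, and the groups overlapped. The means were 105.6 ± 20.0 in gif1 and 98.0 ± 8.1 in wild type (SD, n = 3 each). The log2 difference of 0.08 (SE 0.39, limma adjusted p = 0.916) had a 95% interval from -0.76 to 0.92. Its size depended on array scaling, at 0.42 with median centring (adjusted p = 0.4996), 0.41 with quantile normalization (0.548) and 0.51 with control scaling (0.371). Without gif1 replicate 2 the difference was -0.015, and without gif1 replicate 1 it was 0.22 with an interval up to 1.21.

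CIN3, the gene next to GIF1, lay below the minimum mean signal of 74.1 that was required for a test. It read 38.1, 3.7 and 28.9 in gif1, against 8.4, 70.5 and 71.6 in wild type. The values scattered widely within each genotype and overlapped between them. Replicate 2 in gif1 and replicate 1 in wild type lay under the added constant. The log2 difference was -0.63 as a value with no test, and it was -1.22 without wild-type replicate 1, when the remaining wild-type arrays lay above all gif1 arrays, and -0.21 without gif1 replicate 2. When all 57194 probe sets were fitted without a minimum its 95% interval ran from -2.05 to 0.79 (limma adjusted p = 0.685, with 2.32% of all probe sets called higher and 1.96% lower in that fit), wide enough to hold differences as large as that of GIF1 and none at all.

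**Figure D1:**
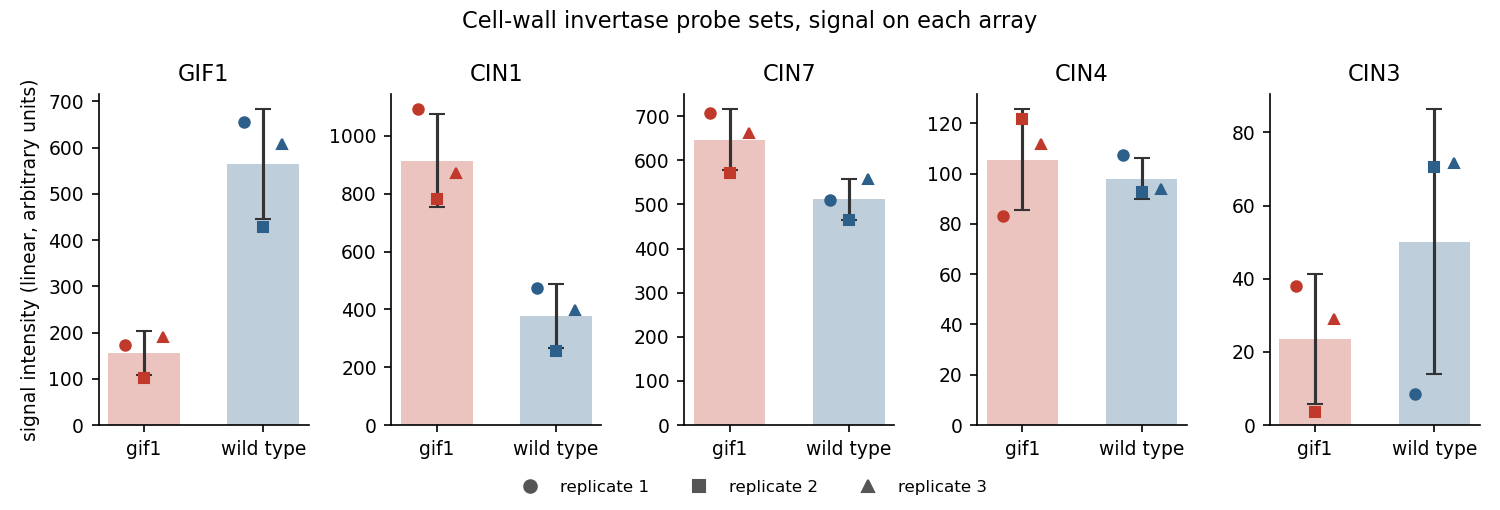
Signal intensity (linear, arbitrary units, axes from 0) of the 5 cell-wall invertase probe sets, with gif1 left of wild type in each panel. Points are arrays (symbol by replicate number), bars are means and error bars are SD over n = 3 arrays. GIF1 is at 100.9 to 190.4 in gif1 and 428.6 to 654.2 in wild type, CIN1 is at 781.1 to 1092.4 and 256.5 to 474.7, and the groups overlap for CIN4 and CIN3.

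The opposite directions of GIF1 and CIN1 were compared within each array, where a factor that multiplies a whole array cancels apart from the added constant. The log2 signal of one probe set was taken minus that of another on the same array. The sign of a single value depends on how well each probe set binds and says nothing of which transcript was more abundant, so these values bear only on the comparison between genotypes.

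CIN1 minus GIF1 was 2.54, 2.75 and 2.10 on the gif1 arrays, against -0.45, -0.70 and -0.59 on the wild-type arrays. The groups were far apart relative to their spread, with means of 2.46 ± 0.34 in gif1 and -0.58 ± 0.13 in wild type (SD, n = 3 each). The difference of 3.04 on the log2 scale is an 8.24-fold unequal change of the 2 signals. The exact permutation test gave p = 0.1 (two-sided, 0.1 after adjustment over 3 pairs), which is its lowest possible value, with all gif1 arrays above all wild-type arrays.

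CIN4 minus GIF1 was -0.46 ± 0.61 in gif1 and -2.31 ± 0.26 in wild type (SD, n = 3 each), a difference of 1.85. CIN1 minus CIN4 was 2.92 ± 0.49 in gif1 and 1.73 ± 0.36 in wild type, a difference of 1.19. For both of these pairs the gif1 arrays again lay above the wild-type arrays (exact permutation p = 0.1, and 0.1 after adjustment over 3 pairs). The 3 pairs are not independent results, since their differences follow from those of the single genes. The last pair is the first minus the second. None could reach 0.05 with this number of arrays, and how often other pairs of probe sets separate in this way was not tested. Pairs with CIN7 were added after its values were seen and are given without a test. CIN7 minus GIF1 was 1.98 ± 0.31 in gif1 and -0.12 ± 0.23 in wild type, and CIN1 minus CIN7 was 0.48 ± 0.12 in gif1 and -0.46 ± 0.36 in wild type, both without overlap. CIN7 minus CIN4 overlapped between genotypes, at 2.44 ± 0.38 in gif1 and 2.19 ± 0.15 in wild type.

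**Figure D2:**
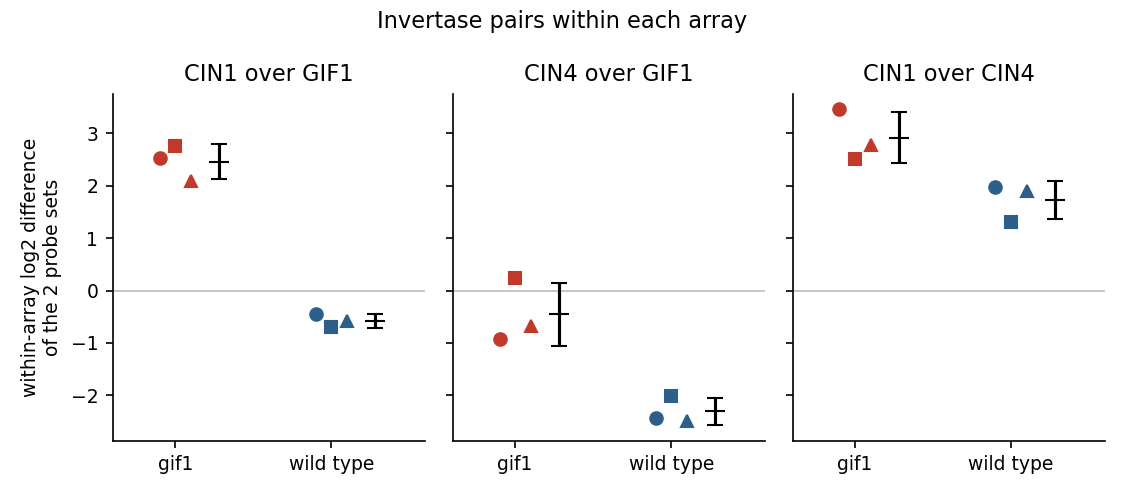
Within-array log2 differences for CIN1 over GIF1, CIN4 over GIF1 and CIN1 over CIN4, gif1 left of wild type. Each symbol is an array, with the mean and SD of n = 3 beside it. The gif1 arrays lie above the wild-type arrays for all 3 pairs, by 3.04, 1.85 and 1.19 on average.

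Median centring and control scaling moved the differences of GIF1, CIN1 and CIN7 by about as much as the median of all tested probe sets, and left the directions of GIF1 and CIN1 as they were. With median centring GIF1 differed by -1.43 and CIN1 by 1.61. With scaling to the hybridization controls they differed by -1.29 (limma adjusted p = 0.0044) and 1.76 (adjusted p = 0.000174). Measured from the median of all tested probe sets, GIF1 lay at -1.71, -1.71 and -1.72 and CIN1 at 1.33, 1.33 and 1.33 as deposited, with median centring and with control scaling. Both settings move a whole array by 1 value, so apart from the added constant these distances could not change. Their sameness is no result about these genes. Leaving out any single array kept both calls, with log2 differences from -1.95 to -1.52 for GIF1 (adjusted p up to 0.0114) and from 1.03 to 1.45 for CIN1 (adjusted p up to 0.0388).

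**Figure D3:**
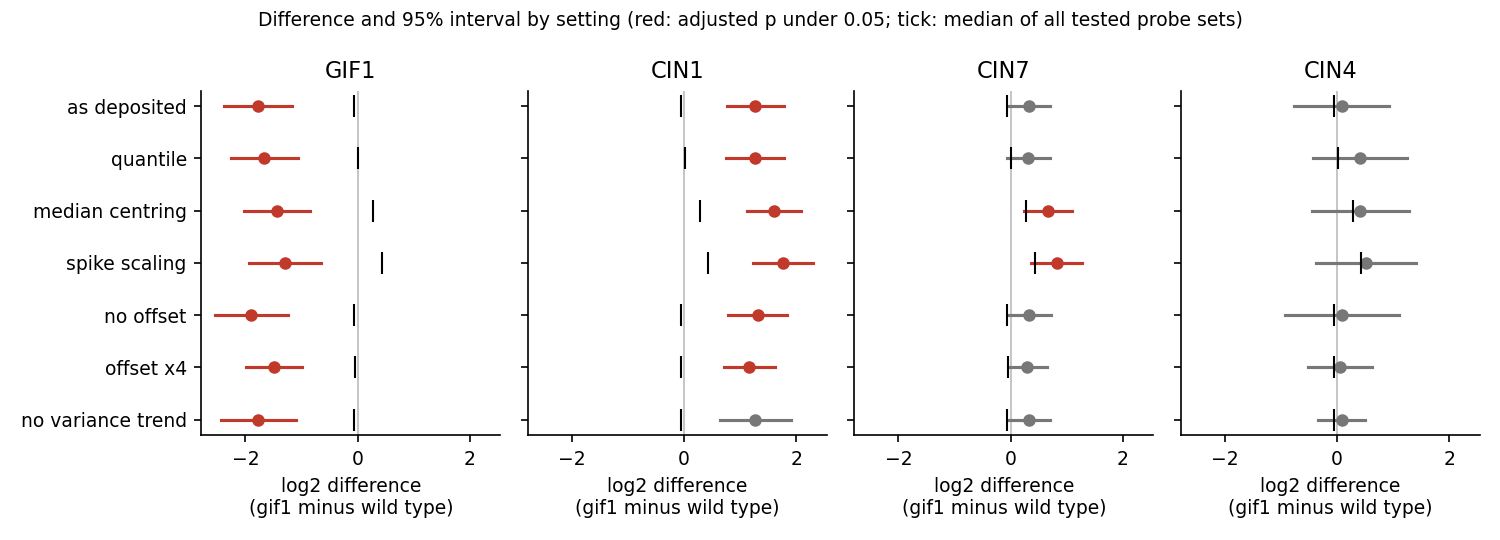
Log2 difference, gif1 minus wild type, with its 95% interval for GIF1, CIN1, CIN7 and CIN4 under 7 of the settings, from the arrays as deposited at the top. Red marks an adjusted p under 0.05, grey a larger one, and the black tick is the median difference of all tested probe sets in that setting. GIF1 is red in all 7, CIN1 is grey without the variance trend (adjusted p = 0.0590), CIN7 is red with median centring and spike scaling, and CIN4 is grey throughout.

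The other steps of sucrose use were followed in lists of genes found by name. Of 34 genes tested in these lists, 4 rose, 1 fell and 29 did not pass, against 7.92% rises and 5.63% falls among all 15423 genes tested by their brightest probe set. Their median log2 difference was 0.21, against 0.03 for all genes. The list counts followed array scaling, with 15 rises and no fall (0) after median centring and 29 and 0 with control scaling. Outside the cell-wall invertase members, no gene (0) of the table matched the names searched for vacuolar invertases, invertase inhibitors or UDP-glucose pyrophosphorylases. CIN7 and CIN3 carry the synonyms INV1 and INV4, which match the vacuolar search, but as members they were kept out of these lists.

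Of the enzymes that cleave sucrose inside the cell, 1 of 7 tested was called, where 7.92% of all genes tested rose and 5.63% fell. The neutral or alkaline invertases, which act in the cytosol and organelles, had 3 tested members, none of them called (0). NIN1 differed by 0.07 (SE 0.16) and NIN3 by 0.05 (SE 0.14), and both passed as higher with control scaling (0.57 and 0.55). Sucrose synthases, which cleave sucrose to fructose and UDP-glucose, had 1 fall among 4 tested. SUS4 read 12027.9, 11813.2 and 9112.0 in gif1, against 15134.1, 16834.3 and 27329.0 in wild type. The log2 difference of SUS4 was -0.81 (SE 0.19, limma adjusted p = 0.0216), a call lost without gif1 replicate 1, 2 or 3 (adjusted p = 0.0533, 0.0510 and 0.0972) and with median centring (-0.47, adjusted p = 0.104), control scaling (-0.30, adjusted p = 0.219) and no variance trend (adjusted p = 0.129). SUS3 (0.31, SE 0.15) and SUS2 (0.30, SE 0.13) did not pass as deposited and did so as higher with median centring and with control scaling, as also without wild-type replicate 1 (0.47, adjusted p = 0.0304, and 0.41, adjusted p = 0.0417).

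Among the kinases that phosphorylate the hexoses released by invertase, 2 of 7 rose and none fell. Of all genes tested, 7.92% rose and 5.63% fell. The hexokinase gene LOC4326547, whose synonyms are HXK2 and HXK6, averaged 2725.6 ± 409.5 in gif1 and 1733.4 ± 243.2 in wild type (log2 difference 0.65, SE 0.15, limma adjusted p = 0.0192). The fructokinase FRK1 averaged 1017.0 ± 139.1 in gif1 and 649.1 ± 60.1 in wild type (0.63, SE 0.16, adjusted p = 0.0302). Neither call held under every alternative. That of LOC4326547 was lost without gif1 replicate 1 or 3 (adjusted p = 0.0660 and 0.0956) or wild-type replicate 2 (0.0641), that of FRK1 without gif1 replicate 1, 2 or 3 (0.0913, 0.128 and 0.0559) or wild-type replicate 3 (0.0561), and both with no variance trend (0.1001 and 0.0890). LOC4326776, with the synonyms HXK4 and HXK8 (0.36, SE 0.15), and LOC4339361, with the synonym HXK5 (0.32, SE 0.16), did not pass as deposited and did with median centring (0.70 and 0.66) and control scaling (0.87 and 0.83).

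Of the transporters, none of the 4 sucrose transporters and not the 1 tested monosaccharide transporter, MST3 (0.37, SE 0.19), passed as deposited; MST3 did with median centring (0.71) and control scaling (0.87). SUT5 read 171.7, 184.5 and 119.2 in gif1, against 66.4, 53.3 and 34.3 in wild type. Its groups did not overlap, and its log2 difference of 1.36 (SE 0.43) missed the threshold (limma adjusted p = 0.0629) and met it with quantile normalization (1.61, adjusted p = 0.0359, where 5.39% of all probe sets were called higher and 4.88% lower), median centring (1.70), control scaling (1.77), no variance trend (adjusted p = 0.0492) and without wild-type replicate 1 (1.52, adjusted p = 0.0443). SUT2 differed by 0.38 (SE 0.14, adjusted p = 0.0997) and passed without wild-type replicate 1 (0.47, adjusted p = 0.0403), with median centring (0.71) and with control scaling (0.88). Among 11 SWEET transporters, which let sugars pass the membrane along their gradient, 2 rose and none fell. The shares over all genes tested were 7.92% and 5.63%. SWEET2b averaged 490.3 ± 55.4 in gif1 and 167.6 ± 33.0 in wild type. It differed by 1.47 (SE 0.23, adjusted p = 0.00286), and its other probe set by 2.01. The identifier of the brighter probe set ends in _x_at, and whether it also binds other transcripts was not tested. The other was dim in wild type, at 120.6, 37.8 and 105.5. SWEET5 read 516.0, 842.3 and 228.5 in gif1, against 217.1, 50.7 and 23.1 in wild type, and the lowest gif1 array barely exceeded the highest wild-type array. It differed by 2.48 (SE 0.60, adjusted p = 0.0216), a call lost without gif1 replicate 1 or 2 (0.0851 and 0.101), without wild-type replicate 2 or 3 (0.0689 and 0.0514) and with no variance trend (0.111). SWEET1b (1.12, SE 0.49) and SWEET16 (0.51, SE 0.33) did not pass. SWEET1b rested on single wild-type arrays, at 0.56 without replicate 2 and 1.66 without replicate 3, where it passed (adjusted p = 0.0417), and it also passed with median centring (1.46, adjusted p = 0.0364) and control scaling (1.55, adjusted p = 0.0177). SWEET16 passed with control scaling (0.97, adjusted p = 0.0473). Sucrose-phosphate synthases, which make sucrose, had none called among 4, with SPS4F at 0.27 (SE 0.16) and SPS1 at 0.23 (SE 0.17). Both passed with control scaling (0.78 and 0.74), and SPS4F also with median centring (0.61). The GIF1 and CIN1 differences were each larger in size than that of SUS4 and of both called kinases, while SWEET5 and SWEET2b, which were called, and SUT5, which was not, exceeded CIN1. These differences between genes were not tested.

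**Figure D4:**
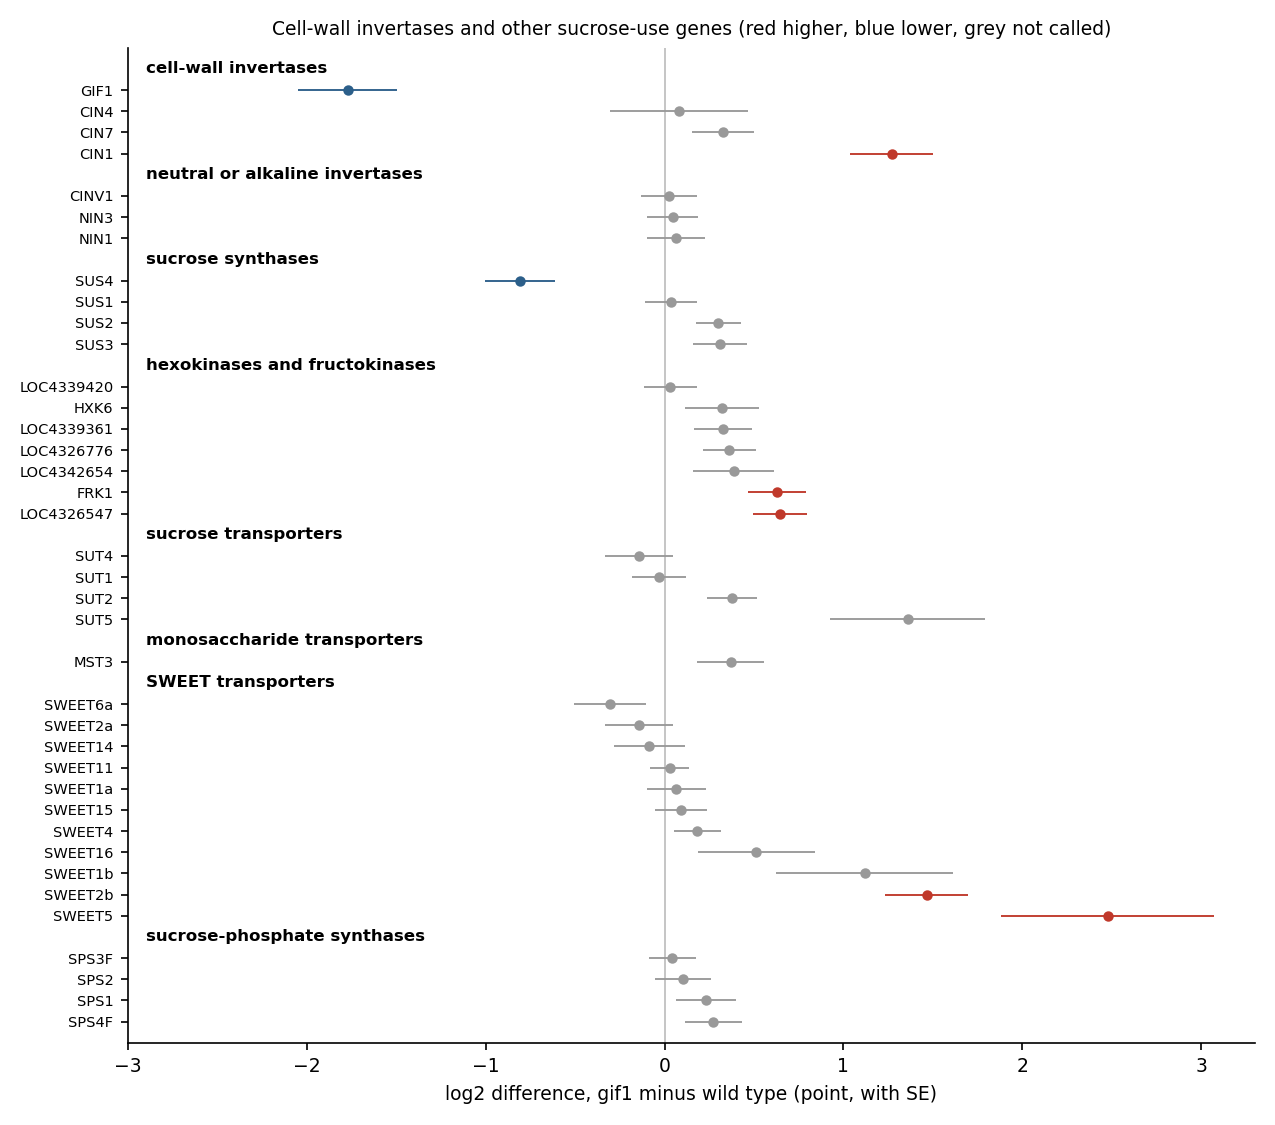
Log2 difference, gif1 minus wild type, with its SE for the 4 tested cell-wall invertases and 34 other tested genes of sucrose use, grouped by list, from n = 3 arrays each. Red points were called higher, blue lower and grey neither. GIF1 (-1.77) lies farthest left, CIN1 (1.27) among the highest, and most other genes lie near or just above 0.

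The genes whose signal followed each invertase most closely over the 6 arrays were sought among 14371 other genes by Pearson's r of log2 signal. The 6 arrays form 2 genotypes, so a high r largely means a like difference between them, and it is given as a description. For GIF1 the 5 closest were LOC4328179 (r = 0.995), LOC9268059, LOC4324337, LOC4346262 and LOC4329151 (r = 0.992), which carry no other symbol in the gene table. All were lower in gif1 by the means, with log2 differences from -1.03 for LOC4346262 to -0.21 for LOC4329151, each smaller in size than that of GIF1. An r of at least 0.95 with GIF1 was reached by 145 genes, 1.01% of those compared. For CIN1 they were IAA25, an auxin response repressor (r = 0.996, log2 difference 0.54), LOC4349221, LOC4342673, LOC4339998 and the transcription factor YAB6 of the YABBY family (r = 0.992, 0.47), and 221 genes reached 0.95. For CIN7 they were LOC4351755 (r = 0.992), LOC4337993, LOC4328238, LOC4351610 and LOC4331558 (r = 0.985), with 51 genes at 0.95 or more. CIN4 and CIN3 differed little between genotypes relative to their spread, so their likeness reflects scatter among single arrays. Closest to CIN4 were LOC4338502 (r = 0.993), EGY2, LOC4348669, LOC4349037 and LOC4347614 (r = 0.964), and 5 genes reached 0.95. Closest to CIN3 were LOC9269071 (r = 0.986), LOC4335176, LOC4346103, LOC9266932 and LOC4330736 (r = 0.967), and 15 genes did.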

How the data were processed

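The table deposited by the authors holds 1 linear signal intensity for each probe set on each array. GCOS 1.4 is the tool that the submitters' processing notes name. The steps for background, probe summary and scaling are not stated there. The values show a mean after trimming 2% at each end of 500.1 on every array. Columns were matched to samples by their labels, with 0 left over. For arrays, their number limits the precision (6).

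Of 57381 probe sets, 187 control and reporter probe sets were left out. Signals were transformed as log2(signal + 17.7), the constant being the 25th percentile, and the 28597 probe sets with a mean of at least 74.1, the median, were tested. limma 3.58.1 in R 4.3.3 (lmFit, eBayes with an intensity trend) fitted genotype as the only term, with Benjamini-Hochberg adjustment over all of them. Within-array pairs had exact permutation tests (scipy 1.17.1). Probe sets were named through the platform annotation and the RefSeq gene table, and since the array's build is not given, no gene coordinates are printed. Whether probe sets of the related invertases also bind each other's transcripts was not tested.

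The members and lists were chosen with earlier results of these data known. Every member probe set is reported, with all called list genes, the 2 uncalled genes of smallest p per list and the 5 genes most like each member. The brightest probe set stood for a gene. Matches to RSS1 and RSS3 alone, names of salt-tolerance genes, were dropped from the sucrose synthases. CIN7 and CIN3 had no entry of their own in the planned tests and were fitted the same way.

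Same-numbered arrays did not deviate together (correlations of deviations -0.034, 0.022 and -0.047), so the numbers were not taken as pairs. Alternatives were other scalings, constants, filters, variance models, array weights, a replicate block and leaving out each array. On simulated data for the gif1 and wild-type comparison over 28597 probe sets, the fit recovered 33% of 100 probe sets changed 2-fold. It recovered 58% of 100 changed 4-fold. Of 93 calls on these data, 2 were false. Both sizes are on the transformed scale, so for dim probe sets they are not folds of signal. The count of false calls holds for the simulated data only. It does not measure false calls on the real arrays, which differed between genotypes beyond single genes and gave 3425 calls.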

Additional observations from a re-analysis of the deposited data

How the results depend on the processing

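GIF1 kept its direction and call in all 15 alternatives (-1.95 to -1.29, limma adjusted p up to 0.0401). CIN1 kept both in 14 of 15 (1.03 to 1.76) and lost its call with no intensity trend (1.27, adjusted p = 0.0590). CIN7 gained a call with median centring (0.66) and spike scaling (0.82) and in no other of 15. CIN4 passed in none of 15 and turned to -0.015 without gif1 replicate 2 (-0.015 to 0.22 over single arrays left out), with 0.51 under spike scaling as its highest value. CIN3 kept its sign from -1.22 without wild-type replicate 1 to -0.21 without gif1 replicate 2. The 3 within-array pairs kept their directions in all 9 alternatives each (2.66 to 3.23, 1.51 to 2.08 and 0.86 to 1.39). Array scaling changed the counts of calls, to 5817 higher and 613 lower with median centring and 9777 and 477 with spike scaling. They were 368 and 416 with no intensity trend, and 1122 lower with no filter. Leaving out single arrays gave 727 to 2289 higher and 709 to 2005 lower. Sucrose-use genes called higher numbered 15, 29 and 2 with median centring, spike scaling and no intensity trend, against 4, and 1 to 8 without single arrays. Those called lower numbered 0 with each of these 3 settings, against 1, and 0 to 1 without single arrays. The cause of these changes was not tested. With the replicate block, under which 1436 probe sets were higher and 1394 lower, GIF1 (-1.77, adjusted p = 0.00212) and CIN1 (1.27, adjusted p = 0.00371) kept their calls. CIN3, under the minimum signal, and CIN4, near it, limit what can be said of them.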

Other observations

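Replicate 2 gave the lowest signal of its genotype for 4 of the 5 cell-wall invertase probe sets in gif1 (GIF1, CIN1, CIN7 and CIN3) and for 4 of 5 in wild type (GIF1, CIN1, CIN7 and CIN4). This was seen after the values were known, and the share of all tested probe sets with replicate 2 lowest was not counted. Wild-type replicate 2 also had the lowest median signal of its group (83.7, against 103.6 and 95.75). The gif1 replicate 2 had the highest of its group (72.6, against 67.5 and 72.4). The number does not pair the arrays over all tested probe sets, where the correlation of deviations between both replicates 2 was 0.022.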
